A study of Mus musculus with 12 samples.

Results

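The unfolded protein response and the amino acid stress response were followed through 36 genes, chosen by symbol, out of 18193 genes named on the array. Each was read from its brightest probe set that names a single gene, by the mean deposited signal over 12 arrays. All 36 were on the array and passed the filter on dim probe sets, as did 11325 genes in all. They fell into a chaperone arm of 14 genes (Hspa5, Hsp90b1, Pdia3, Pdia4, Pdia6, Calr, Canx, Dnajb9, Dnajb11, Dnajc3, Sdf2l1, Creld2, Manf and Hyou1) and an ATF4 amino acid arm of 14 genes. The ATF4 arm held 8 regulators (Atf4, Atf3, Ddit3, Trib3, Chac1, Sesn2, Cebpb and Ppp1r15a) and 6 enzymes (Asns, Psat1, Phgdh, Psph, Shmt2 and Mthfd2). Between the arms stood 4 genes of ER-associated degradation (Herpud1, Edem1, Sel1l and Syvn1) and 4 for sensors and their effector (Ern1, Atf6, Eif2ak3 and Xbp1).

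RNA came from splenocytes of DBA/2 mice aged 10 weeks that had been cultured for 9 days with KLN-205, a lung tumour line of mouse with squamous character, and with interleukin-2, a T cell growth factor, at 100 units/mL every 3 days. All 4 groups shared the knockdown of SEMA3A, a secreted semaphorin, in the tumour cells (KLN-205KD). The control group held KLN-205KD cells and nothing further. In the SEMA6A group the KLN-205KD cells overexpressed SEMA6A, a membrane-bound semaphorin. The SEMA3A group held KLN-205KD cells with purified protein of that name at 10 µg/mL. The fourth group, called both factors here, combined SEMA6A-overexpressing KLN-205KD cells with SEMA3A protein at 10 µg/mL. Each group had 3 arrays. Whether a group's arrays stand for different cultures or mice is not in the labels, so the p-values measure the spread between these arrays, which may be technical. Splenocytes and tumour cells are both of mouse origin, and in such a mixture fewer cells of a type and less RNA per cell cannot be told apart.

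Proteins that enter the endoplasmic reticulum (ER) are folded by resident chaperones. When unfolded protein accumulates, the sensors IRE1 (encoded by Ern1), ATF6 and PERK (encoded by Eif2ak3) signal to the nucleus: IRE1 splices Xbp1 mRNA, ATF6 is cleaved to a transcription factor, and PERK phosphorylates eIF2α. Phosphorylated eIF2α favours translation of ATF4, and the kinase GCN2 reaches the same step when amino acids run short. ATF4 then drives genes of amino acid synthesis, transport and tRNA charging, so that a chaperone response and an ATF4 response can be read apart. Activated T cells draw on both, for secretion and for growth.

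The sequences before the start sites of these genes are shown because the arms are read by different factors. In the RefSeq promoter table of assembly GRCm38.p6, which spans 250 bases before to 50 bases after a gene's start, 33 of the 36 genes had an entry. Atf6, Manf and Hyou1 had none. The ER stress element, known to be bound by ATF6 and XBP1 with NF-Y, was searched as CCAAT and CCACG with 9 bases between them on either strand. It was in 39 of 32851 promoters, or 0.119%, and in 7 of 12 chaperone promoters: Hspa5, Hsp90b1, Pdia6, Calr, Canx, Dnajc3 and Creld2. Syvn1 was the 1 degradation gene of 4 with it, and no ATF4 arm promoter held it. The C/EBP-ATF element, known to be bound by ATF4 with a C/EBP partner, was searched as TGATGNAA on either strand. It was in 1304 promoters, or 3.97%, and in those of Atf3, Chac1, Trib3 and Asns in the ATF4 arm, in that of Herpud1, and in 0 of 12 chaperone promoters. A second form of the ER stress element, ATTGG and CCACG with 1 base between them, was added after the data were seen. It was in 12 promoters, or 0.0365%, with Herpud1 and Dnajb11 among them. A match describes the letters of a window and does not show binding. The stretches below run 5′ to 3′ on the gene's strand, with the element's letters in capitals. On the opposite strand the ER stress element reads CGTGG and ATTGG, and the C/EBP-ATF element reads TTNCATCA. The chaperone stretches come first.
Hspa5, chr2:34772015-34772053, plus strand: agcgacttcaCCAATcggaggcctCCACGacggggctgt
Calr, chr8:84847065-84847103, minus strand: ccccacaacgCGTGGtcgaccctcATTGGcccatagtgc
Pdia6, chr12:17266481-17266519, plus strand: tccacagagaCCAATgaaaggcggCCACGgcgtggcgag
Creld2, chr15:88819510-88819548, plus strand: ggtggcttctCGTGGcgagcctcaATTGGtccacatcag
Those of the ATF4 arm follow, each with the C/EBP-ATF element alone.
Asns, chr6:7693215-7693242, minus strand: cccagccacaTGATGAAActtcccgcac
Chac1, chr2:119351039-119351066, plus strand: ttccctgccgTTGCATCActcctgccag
Atf3, chr1:191183426-191183453, minus strand: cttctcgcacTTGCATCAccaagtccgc
Herpud1 is shown because its stretch held the C/EBP-ATF element and, further downstream, the second form of the ER stress element, which overlap neither each other nor another searched element.
Herpud1, chr8:94386307-94386397, plus strand: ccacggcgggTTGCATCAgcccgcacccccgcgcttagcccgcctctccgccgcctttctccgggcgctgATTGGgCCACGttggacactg

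The deposited values are intensities on a linear scale, scaled to the same trimmed mean of 500 on each array, with array medians between 42.5 and 53.5. Differences below are on the scale of log2(signal + 16) after quantile normalization, given ± standard error from limma, with p-values adjusted over all 11325 genes. SEMA6A replicate 2 stood apart in 2 such measures: on it the 3′/5′ signal ratio of Gapdh, a measure of RNA integrity and cRNA length, was 1.22, against 0.767 to 0.818 on the other 11, and that of Actb was 1.23, against 0.993 to 1.12. The 3′/5′ ratio of the transferrin receptor transcript was not high on that array alone: it was 6.82, 8.41 and 9.34 on the control arrays, 8.39, 35.7 and 23.3 with SEMA6A, 17.2, 17.6 and 18.1 with SEMA3A and 12.2, 5.93 and 11.2 with both. It was thus higher on SEMA6A replicates 2 and 3 and on all SEMA3A arrays than on any control array or array with both factors, and its part in the results below was not tested. Many of the values that involve the SEMA6A group are also given without SEMA6A replicate 2. Cd3d and Cd3g of T cells, and Gzmb and Gzma of cytotoxic cells, were well above the array medians on every array. Cd8a ran from 496 to 4231, Cd5 from 55.5 to 200.1 and Cd4, which did not pass the filter, from 4.01 to 13. The summed signal of 8 T cell markers, of which 7 passed the filter, was 39108 to 45854 on the control arrays, 36550.2 to 47685 with SEMA6A, 45354 to 48951 with SEMA3A and 41949.7 to 44187 with both. Of 10 plasma and B cell markers on the array, 4 passed the filter, and Jchain, Tnfrsf17, Pax5, Ms4a1, Cd79a and Pou2af1 did not.

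None of the 36 genes, and no gene of the 11325, passed an adjusted p of 0.05 in any of the 6 comparisons, so 0% was called in each, and the differences below are values that did not pass. At an unadjusted p under 0.05, 2 of 36 members were above 0 and 0 below in SEMA6A against control, where 6.5% of all genes lay above and 3.93% below. In SEMA3A against control 1 member was above and 0 below, with 4.87% and 3.86% of all genes. For both factors against control the count was 0 above and 1 below, with 2.58% and 1.54% of all genes. These 3 comparisons share the control arrays, and the next 2 share the arrays with both factors. Both factors against SEMA3A alone gave 0 members above and 6 below, where 5.84% and 5.4% of all genes did so. Both factors against SEMA6A alone gave 1 above and 4 below, against a background of 5.21% and 6.3%. The interaction, the difference of both factors from control less the differences of SEMA6A and of SEMA3A from control, gave 1 above and 7 below, where 7.82% of all genes lay above and 10.2% below. Members of the ATF4 arm made up 6 of those 7 and the 1 above, Herpud1 was the other, and no chaperone was among them.

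**Figure D1:**
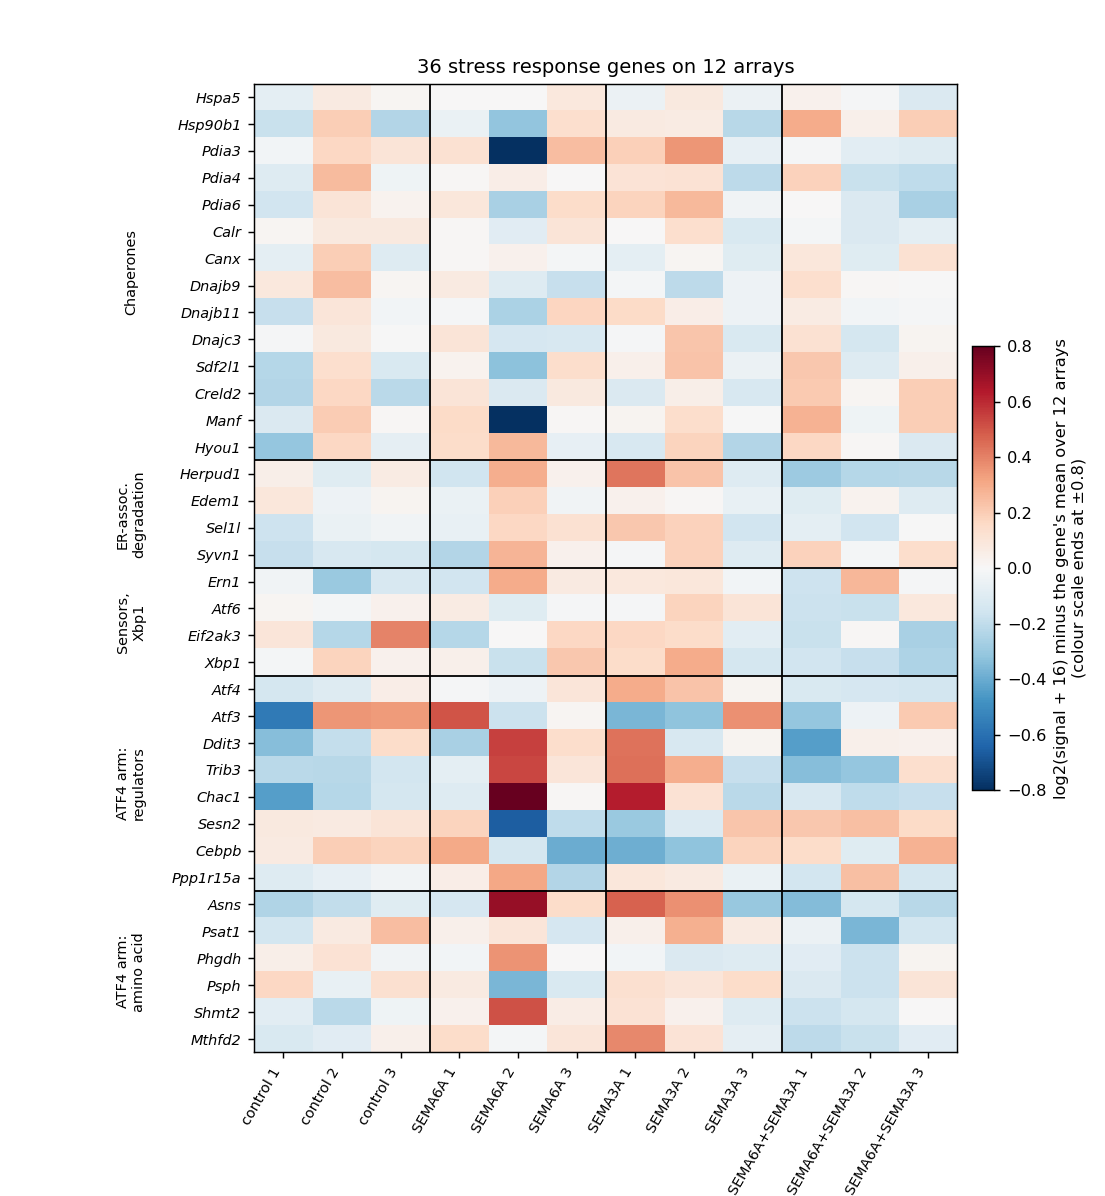
Heat map of the 36 genes (rows, grouped by role) on 12 arrays (columns, 3 per group); colour is log2(signal + 16) after quantile normalization minus the gene's mean over the 12 arrays, and the scale ends at ±0.8. Asns, Trib3 and Chac1 are red on SEMA6A replicate 2 and SEMA3A replicate 1 and pale or blue on the control arrays and those with both factors, while most chaperone rows are pale, apart from Pdia3 and Manf on SEMA6A replicate 2.

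No chaperone gene was called, and the median difference of the 14 was -0.0042 for SEMA6A against control, 0.017 for SEMA3A against control, 0.0060 for both factors against control and 0.0050 for the interaction, beside 0.019, 0.0075, 0.012 and -0.0037 over all genes. These medians are small enough that leaving out 1 array turned the sign of each: the interaction median ranged from -0.077 to 0.081. With the probe set of the largest interquartile range, the median of SEMA6A against control was -0.13. Hspa5 encodes BiP, the chief ER chaperone, whose promoter stretch above carries the ER stress element. Its signal was 22761, 24413 and 25963 on the control arrays, 25267, 23253 and 25928 with SEMA6A, 24236, 27972 and 24124 with SEMA3A and 25449, 24889 and 22149.9 with both. The 4 groups overlapped, and group means ran from 24163 ± 1765 with both factors to 25444 ± 2190.2 with SEMA3A (SD, n = 3). The Hspa5 difference of SEMA6A from control was 0.028 ± 0.062, with a 95% interval of -0.11 to 0.16, and its interaction was -0.055 ± 0.088, with an interval of -0.24 to 0.13. These intervals bound the size of a difference and do not show that there was none. Hspa5 had 2 dimmer probe sets, which gave interactions of 0.27 and 0.071. The dimmest did not follow the brightest in other comparisons: it gave 0.30 (unadjusted p = 0.023) for SEMA6A against control, outside the interval above, 0.44 (unadjusted p = 0.0019) for both factors against control and 0.37 (unadjusted p = 0.007) for both factors against SEMA3A alone.

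Hsp90b1 encodes GRP94, the ER form of HSP90. Its signal was 12855, 16836 and 13076 on the control arrays, 14562, 12090.1 and 16465 with SEMA6A, 15914, 16053 and 12989 with SEMA3A and 18791, 15685 and 17075 with both. The arrays with both factors were high without parting from the others, and the difference of both factors from control was 0.25 ± 0.13 (adjusted p = 1). The dimmer probe set of Hsp90b1 gave the opposite sign, -0.52 (unadjusted p = 0.018). Pdia4 encodes a protein disulfide isomerase, which forms and rearranges disulfide bonds. Its signal was 2229, 2843 and 2328 on the control arrays, 2405, 2464 and 2379 with SEMA6A, 2523, 2549 and 2046 with SEMA3A and 2698, 2071 and 2058 with both. All groups overlapped in Pdia4, and the interaction was -0.052 ± 0.18. Pdia6, another disulfide isomerase, was the 1 chaperone gene whose brightest probe set had an unadjusted p under 0.05 in any comparison. Its signal was 6793, 8131 and 7800.4 on the control arrays, 8195, 6232 and 8285 with SEMA6A, 8511, 9041 and 7545 with SEMA3A and 7658, 6969 and 6403 with both. Both factors against SEMA3A alone gave -0.26 ± 0.12 for Pdia6 (adjusted p = 0.435), with arrays that overlapped, and the gene's dimmer probe set gave 0.091.

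Sdf2l1 encodes a partner of BiP and its cochaperones. Its signal was 4630.1, 6040.2 and 5067 on the control arrays, 5673, 4374 and 5965 with SEMA6A, 5566, 6402 and 5356 with SEMA3A and 6371, 5129 and 5714 with both. Creld2 encodes an ER-resident protein known to be induced by ER stress. For Creld2 the signal was 3042, 4014 and 3102 on the control arrays, 3845, 3314 and 3777 with SEMA6A, 3272, 3637 and 3298 with SEMA3A and 4115, 3579 and 4089.7 with both. In neither gene did any group part from another, and the interactions were -0.040 ± 0.19 for Sdf2l1 and 0.089 ± 0.16 for Creld2. Manf encodes a secreted factor induced by ER stress. For Manf the signal was 8767, 11020.4 and 9915 on the control arrays, 10983, 5290.4 and 9865 with SEMA6A, 10021, 10858 and 9911 with SEMA3A and 11922, 9583 and 11204 with both. SEMA6A replicate 2 was the lowest of the 12, as it was for Pdia3, where its 8048 stood beside 16486 and 17925 on the other SEMA6A arrays. The interaction of Manf was 0.36 ± 0.28, and 0.042 without that array; for Pdia3 it was 0.034, and -0.32 without it (adjusted p = 0.293). In Dnajb9, which encodes the cochaperone ERdj4, the 3 SEMA3A arrays (968, 848 and 943) lay below the 3 control arrays (1046, 1161 and 984), with a difference of -0.20 ± 0.11 (adjusted p = 0.596). The other chaperone genes (Calr, Canx, Dnajb11, Dnajc3 and Hyou1) had interactions between -0.11 and 0.087 by their brightest probe sets. For SEMA6A against control 1 dimmer set of Canx gave 0.28 (unadjusted p = 0.031) and another -0.16 (unadjusted p = 0.42), where the brightest gave 0.0053. The dimmest set of Dnajc3 gave 0.71 (unadjusted p = 0.029) for both factors against SEMA6A alone, where the brightest gave 0.054.

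**Figure D2:**
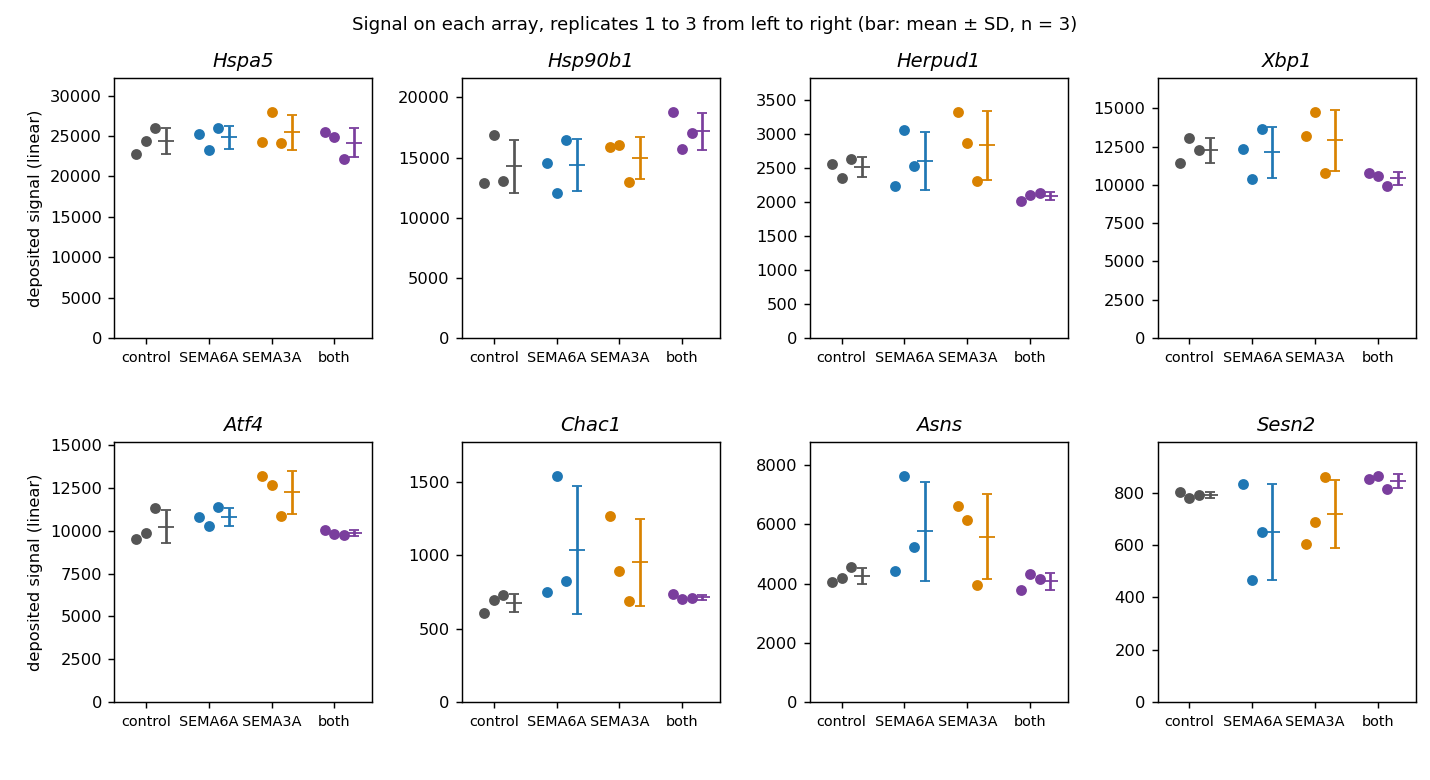
Deposited signal (linear scale, axes from 0) of 8 genes on each array, with replicates 1 to 3 from left to right in each group and the mean ± SD (n = 3) beside them. The arrays of the 4 groups overlap in Hspa5, the arrays with both factors lie below every other array in Herpud1, and in Chac1 and Asns the spread is wide in the SEMA6A and SEMA3A groups and narrow in the other two.

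Among the degradation genes Herpud1 stood lowest with both factors. Herpud1 encodes an ER membrane protein that helps to bring misfolded proteins to the ubiquitin ligase, and it is known to answer both ATF6 or XBP1 and ATF4. Its signal was 2564, 2352 and 2625 on the control arrays, 2228, 3061 and 2526 with SEMA6A, 3325, 2871 and 2312 with SEMA3A and 2020.2, 2103 and 2131 with both. All 3 arrays with both factors lay below the other 9. The difference of both factors was -0.43 ± 0.14 from SEMA3A alone (adjusted p = 0.4) and -0.30 ± 0.14 from SEMA6A alone (adjusted p = 0.428). Against control it was -0.25 ± 0.14 (adjusted p = 1), and the interaction was -0.48 ± 0.19 (adjusted p = 0.233). The second probe set of Herpud1 gave an interaction of -0.57, and the brighter one gave -0.36 without SEMA6A replicate 2 (adjusted p = 0.338). Edem1, which helps to hand misfolded glycoproteins to degradation, had an interaction of -0.065 ± 0.12. For Sel1l and Syvn1, the adaptor and the catalytic subunit of that ligase, it was -0.32 ± 0.16 and -0.10 ± 0.18. In Syvn1 the 3 control arrays (969.6, 996 and 985) lay below the 3 SEMA3A arrays (1091, 1235 and 1007) and the 3 arrays with both (1219, 1062 and 1187). The Syvn1 difference was 0.17 ± 0.13 for SEMA3A (adjusted p = 0.675) and 0.25 ± 0.13 for both (adjusted p = 1).

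None of the 3 sensor genes had an unadjusted p under 0.05 by its brightest probe set. Ern1 signal was 467, 375 and 415 on the control arrays, 406, 579 and 499 with SEMA6A, 497, 504 and 445 with SEMA3A and 407, 554 and 451 with both. Its lowest array was control replicate 2, and the groups overlapped in these deposited signals. After quantile normalization the 3 SEMA3A arrays lay narrowly above the 3 control arrays. The difference from control was 0.22 ± 0.14 for SEMA6A, 0.20 ± 0.14 for SEMA3A and 0.18 ± 0.14 for both. That of SEMA6A was 0.11 without SEMA6A replicate 2. A dimmer probe set of Ern1 gave -0.59 (unadjusted p = 0.075) for SEMA3A against control, the opposite sign, and 0.97 (unadjusted p = 0.0073) for both factors against SEMA3A alone, where the brightest gave -0.019. Another dimmer set gave -0.10 (unadjusted p = 0.67) and 0.10 (unadjusted p = 0.68) in the same comparisons. Interactions were -0.16 ± 0.16 for Atf6 and -0.11 ± 0.21 for Eif2ak3. Xbp1 encodes the transcription factor that spliced Xbp1 mRNA makes; these signals do not tell spliced from unspliced mRNA. Xbp1 signal was 11449.5, 13061 and 12309 on the control arrays, 12341, 10359.6 and 13679 with SEMA6A, 13191, 14775 and 10788 with SEMA3A and 10755, 10619 and 9966 with both. The 3 arrays with both factors lay below the 3 control and the 3 SEMA3A arrays, and overlapped with those of SEMA6A through replicate 2 of that group. Xbp1 differed by -0.26 ± 0.11 between both factors and control (adjusted p = 1) and by -0.30 ± 0.11 between both factors and SEMA3A alone (adjusted p = 0.402). The 3 dimmer probe sets of Xbp1 gave 0.056, 0.019 and 0.18 in the latter comparison, so the low value with both factors was in the brightest set alone.

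The ATF4 arm had a median difference of 0.095 for SEMA6A against control and 0.11 for SEMA3A against control, and of -0.049 for both factors against control. Its median for both factors was -0.21 from SEMA3A alone and -0.19 from SEMA6A alone, beside 0.0070 and -0.0014 over all genes. In the interaction the median was -0.33, and 11 of the 14 genes were below 0, where 5717 of 11325 genes were. That median stayed below 0 in all settings tried, from -0.41 without control replicate 3 to -0.21 with the probe set of the largest interquartile range. Single genes of the arm spread from -0.88 to 0.58, against -0.26 to 0.36 in the chaperone arm. These ranges are not of like precision, since the standard error was larger for a dim gene such as Chac1 than for a bright one such as Hspa5.

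**Figure D3:**
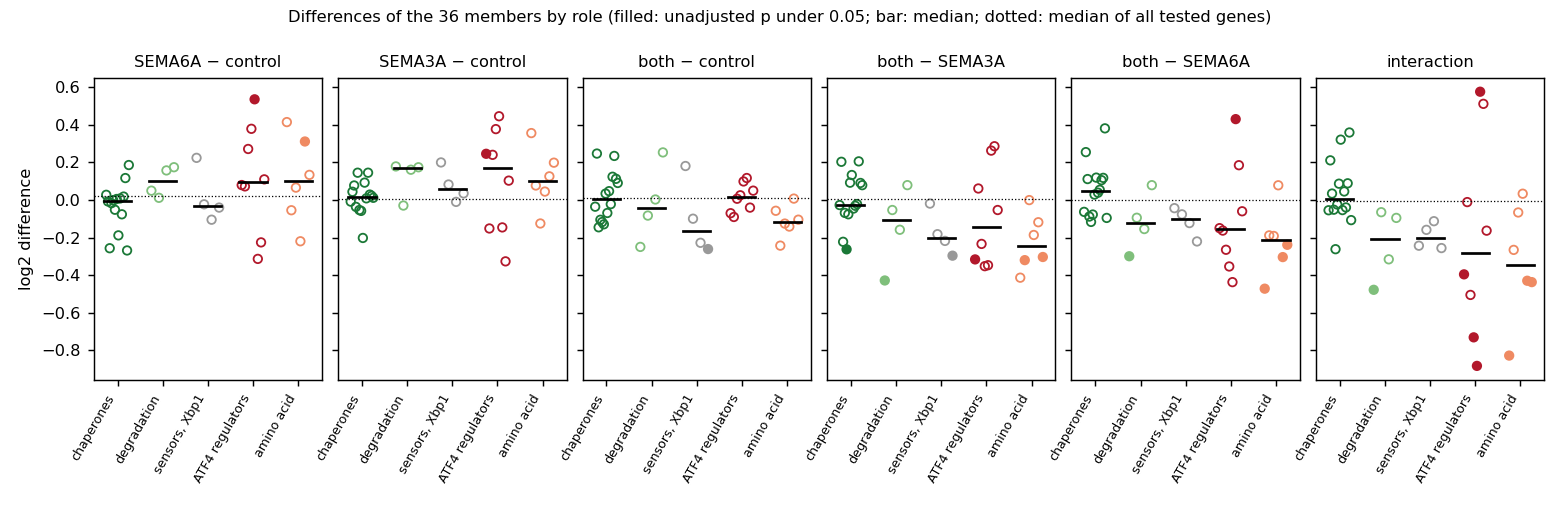
Log2 difference of each of the 36 genes (points, by role) in the 6 comparisons, with filled points at an unadjusted p under 0.05, a bar at the median of each role and a dotted line at the median of all 11325 genes. In the interaction panel 6 filled points of the ATF4 arm and Herpud1 lie below 0 and Sesn2 above, while the chaperones are spread about 0 from -0.26 to 0.36.

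Atf4 encodes the transcription factor at the head of the arm, which is controlled largely at translation, so its mRNA is a partial readout. Its signal was 9535, 9860.2 and 11359 on the control arrays, 10786, 10307 and 11363 with SEMA6A, 13207, 12658 and 10853 with SEMA3A and 10038, 9829 and 9731 with both. SEMA3A replicates 1 and 2 were the highest, and the 3 arrays with both factors, 9866 ± 156 (SD, n = 3), lay below all SEMA3A and all SEMA6A arrays. The Atf4 difference of SEMA3A from control was 0.25 ± 0.080 (adjusted p = 0.551), that of both factors from SEMA3A alone was -0.32 ± 0.080 (adjusted p = 0.397), and the interaction was -0.40 ± 0.11 (adjusted p = 0.197). Without SEMA6A replicate 2 the Atf4 interaction was -0.42 (adjusted p = 0.266). It passed the threshold when SEMA6A replicate 1 was left out (adjusted p = 0.0486) and when SEMA3A replicate 3 was left out (adjusted p = 0.0422). In those fits 1259 and 262 of 11325 genes passed in the interaction. Array weights were the only other setting tried under which Atf4 passed, where 1580 of all genes did. The second, dimmer probe set of Atf4 gave an interaction of -0.13 and 0.17 for both factors against SEMA3A alone, the reverse sign.

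Ddit3 encodes CHOP, a transcription factor of prolonged stress. Its signal was 398, 432 and 539 on the control arrays, 402, 737 and 557 with SEMA6A, 679, 462 and 491 with SEMA3A and 353, 507 and 496 with both. Groups overlapped in Ddit3, with SEMA6A replicate 2 and SEMA3A replicate 1 highest, and the interaction was -0.51 ± 0.31 (adjusted p = 0.387), or -0.30 without SEMA6A replicate 2. Trib3 encodes a pseudokinase that ATF4 and CHOP induce and that restrains them in turn. For Trib3 the signal was 777, 757 and 792 on the control arrays, 827, 1300.1 and 951 with SEMA6A, 1209.8, 1089 and 768 with SEMA3A and 687, 704 and 966 with both. The 3 control arrays were tight, the SEMA6A arrays lay above them, and SEMA3A replicate 3 was at the control level. Its difference of SEMA6A from control was 0.38 ± 0.19, or 0.20 without SEMA6A replicate 2, and the interaction was -0.73 ± 0.27 (adjusted p = 0.211), or -0.56 without SEMA6A replicate 2 (adjusted p = 0.306). The second probe set of Trib3 gave -0.55.

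Chac1 encodes an enzyme that degrades glutathione and is a known target of ATF4, with the C/EBP-ATF element in the stretch above. Its signal was 608, 695 and 726 on the control arrays, 748, 1538 and 824 with SEMA6A, 1268, 890.0 and 690.3 with SEMA3A and 733, 699.7 and 706 with both. The SEMA6A arrays lay above both the control arrays and those with both factors, replicate 2 most of all, and SEMA3A replicate 1 was the second highest. SEMA6A gave 1037 ± 436 and the control group 677 ± 61.6 (SD, n = 3), a difference of 0.54 ± 0.24 (adjusted p = 0.476). Without SEMA6A replicate 2 that difference was 0.22 (adjusted p = 0.883). The interaction of Chac1 was -0.88 ± 0.34 (adjusted p = 0.222), the lowest of the 36, and -0.57 without that array (adjusted p = 0.316).

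Sesn2 and Cebpb ran the other way. Sesn2 encodes sestrin 2, a leucine-binding inhibitor of mTORC1 signalling that ATF4 induces. Its signal was 804, 783 and 793 on the control arrays, 833, 468 and 651 with SEMA6A, 606, 688 and 862 with SEMA3A and 855, 865 and 816 with both. Control arrays and those with both factors were tight and high, and the lowest values were on SEMA6A replicate 2 and SEMA3A replicate 1, the 2 arrays on which Trib3, Chac1 and Asns were highest. Both factors against SEMA6A alone gave 0.43 ± 0.18 (adjusted p = 0.425), and the interaction was 0.58 ± 0.25 (adjusted p = 0.257), or 0.36 without SEMA6A replicate 2 (adjusted p = 0.39). It passed without SEMA6A replicate 1, the highest array of its group (adjusted p = 0.0368), where 1259 of 11325 genes did. The second probe set of Sesn2 gave 0.41. Cebpb encodes C/EBPβ, a partner of ATF4 at C/EBP-ATF elements. Its interaction was 0.51 ± 0.26 (adjusted p = 0.304), with overlapping arrays, or 0.48 without SEMA6A replicate 2. The dimmer probe set of Cebpb gave 0.75 (unadjusted p = 0.067). For SEMA6A against control that set gave -0.72 (unadjusted p = 0.018), where the brightest gave -0.23 (unadjusted p = 0.24). Atf3, a repressor induced by ATF4, and Ppp1r15a, the regulatory subunit that returns eIF2α to its unphosphorylated state, had interactions of -0.011 ± 0.39 and -0.16 ± 0.20.

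The enzymes had a median interaction of -0.35, with 5 of 6 below 0 and 3 at an unadjusted p under 0.05. Asns encodes asparagine synthetase, a classic target of the amino acid response, and its C/EBP-ATF element is shown above. Its signal was 4038, 4193 and 4544 on the control arrays, 4424, 7637 and 5247 with SEMA6A, 6634, 6158 and 3948 with SEMA3A and 3768, 4329.8 and 4143 with both. SEMA6A replicate 2 and SEMA3A replicates 1 and 2 were the highest, SEMA3A replicate 3 was below the control arrays, and all SEMA6A arrays lay above all arrays with both factors. Asns gave 5769 ± 1669 with SEMA6A and 4080.4 ± 286 with both (SD, n = 3), a difference of -0.47 ± 0.20 from SEMA6A alone (adjusted p = 0.425). The interaction of Asns was -0.83 ± 0.29 (adjusted p = 0.209), -0.60 without SEMA6A replicate 2 (adjusted p = 0.29), and -0.74 by the second probe set. It passed the threshold without SEMA6A replicate 1 (adjusted p = 0.0334) and without SEMA3A replicate 3 (adjusted p = 0.0443), each the lowest array of its group. In those fits 1259 and 262 of 11325 genes passed in the interaction.

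Phgdh, Psat1 and Psph encode the 3 steps of serine synthesis, in that order. Phgdh signal was 15392, 16367 and 15399 on the control arrays, 15231, 19299 and 15276 with SEMA6A, 15114, 14423 and 14444 with SEMA3A and 14572, 13960.1 and 15535 with both. SEMA6A replicate 2 was the highest of the 12, and the interaction was -0.067 ± 0.13, or 0.056 without that array. The 3 dimmer probe sets of Phgdh gave interactions of -0.15 (unadjusted p = 0.28), -0.31 (unadjusted p = 0.013) and -0.071 (unadjusted p = 0.67). Psat1 signal was 7187, 8443 and 9708 on the control arrays, 8465, 8605 and 7279 with SEMA6A, 8288, 9932 and 8678 with SEMA3A and 7931, 6291 and 7425 with both. The 3 arrays with both factors lay below the 3 SEMA3A arrays, with a difference of -0.32 ± 0.11 (adjusted p = 0.402), while the second probe set of Psat1 gave 0.12. For Psph the interaction was 0.033 ± 0.16.

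Shmt2 and Mthfd2 encode mitochondrial enzymes that pass the carbon unit of serine to folate. Shmt2 signal was 5659, 5236 and 5984 on the control arrays, 6303, 8541 and 6265 with SEMA6A, 6529, 6176 and 5716 with SEMA3A and 5398, 5501 and 6155 with both. The SEMA6A arrays lay above the control arrays and above those with both factors, with replicate 2 far above the others. Shmt2 differed by 0.31 ± 0.12 between SEMA6A and control (adjusted p = 0.476), or 0.16 without that array, and the interaction was -0.43 ± 0.17 (adjusted p = 0.221), or -0.28 without it (adjusted p = 0.29). Further probe sets of Shmt2 gave interactions of -0.34, 1.11 and -1.15 and so disagreed in sign. The set with 1.11 also gave -0.83 (unadjusted p = 0.051) for SEMA6A against control. For both factors against SEMA6A alone it gave 1.32 (unadjusted p = 0.0045), where the brightest gave -0.30. The remaining sets had the brightest set's sign in both comparisons. Mthfd2 signal was 4172, 4342 and 4773 on the control arrays, 5147, 4534 and 4906 with SEMA6A, 5951, 4909 and 4413 with SEMA3A and 3963, 4041 and 4333 with both. The arrays with both factors lay below all SEMA3A and all SEMA6A arrays, and SEMA6A replicate 2 was not apart. Mthfd2 differed by -0.30 ± 0.11 between both factors and SEMA3A alone (adjusted p = 0.402) and by -0.24 ± 0.11 between both factors and SEMA6A alone (adjusted p = 0.425). Its interaction was -0.44 ± 0.15 (adjusted p = 0.204), -0.48 without SEMA6A replicate 2 (adjusted p = 0.267), and -0.32 by the second probe set.

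Set side by side, the arms ordered the arrays differently. The mean over the 14 ATF4 arm genes of the difference from each gene's 12-array mean was -0.15, -0.040 and 0.055 on the control arrays, 0.051, 0.18 and -0.031 with SEMA6A, 0.14, 0.044 and -0.00040 with SEMA3A and -0.15, -0.10 and 0.00033 with both. The chaperone arm gave -0.11, 0.15 and -0.039 on the control arrays, 0.057, -0.22 and 0.052 with SEMA6A, 0.027, 0.12 and -0.10 with SEMA3A and 0.13, -0.060 and -0.0084 with both. SEMA6A replicate 2 was the highest array in the ATF4 arm and the lowest in the chaperone arm. All groups overlapped in both arms. The chaperone mean less the ATF4 mean averaged 0.044 ± 0.14 on the control arrays, -0.10 ± 0.26 with SEMA6A, -0.045 ± 0.11 with SEMA3A and 0.10 ± 0.15 with both (SD, n = 3), with no test since the arms were chosen with results known. Other measures were high on some of the same arrays. A list of 14 hypoxia and glycolysis genes, chosen because it moved in these data, gave -0.39, -0.22 and -0.28 on the control arrays, -0.11, 0.49 and 0.32 with SEMA6A, 0.50, 0.31 and -0.082 with SEMA3A and -0.18, -0.28 and -0.083 with both. It was high on SEMA6A replicates 2 and 3 and SEMA3A replicates 1 and 2. The summed signal of 16 squamous carcinoma markers, of which 10 passed the filter, was 3236 to 3769 on the control arrays, 3142 to 4459 with SEMA6A, 3079 to 3529 with SEMA3A and 3329 to 3741 with both. The mean deviation over those 10 was -0.070, -0.084 and -0.073 on the control arrays, -0.048, 0.41 and 0.19 with SEMA6A, 0.045, 0.054 and -0.19 with SEMA3A and -0.061, -0.10 and -0.067 with both, highest on SEMA6A replicates 2 and 3. The sum of 7 macrophage markers, of which 4 passed, was 574 to 611 on the control arrays, 574 to 873 with SEMA6A, 640.2 to 887 with SEMA3A and 658 to 672 with both. That of 10 plasma and B cell markers was 972 to 1053, 1123 to 2144, 985 to 2187 and 1107 to 1249.6 in the same order, with Prdm1, also a T cell gene, as its brightest. These sums include markers that did not pass the filter, with lowest signals such as 1.01 for Trp63, 0.75 for Itgam and 0.69 for Tnfrsf17. The part of these measures in the ATF4 values was not tested.

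**Figure D4:**
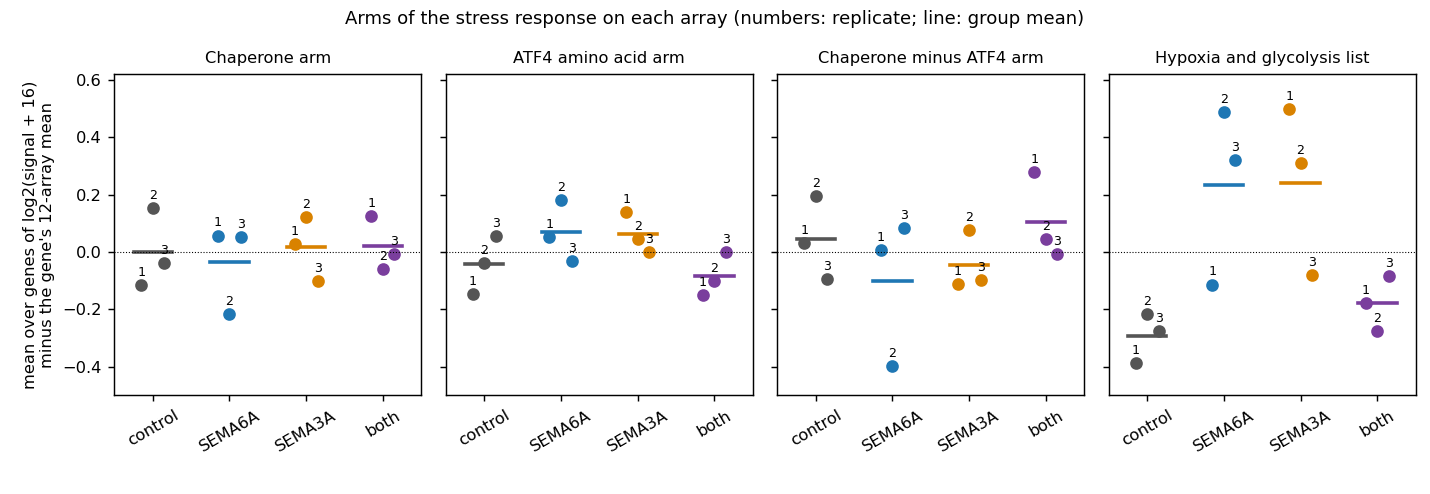
Mean over genes of log2(signal + 16) minus each gene's 12-array mean, for the chaperone arm (14 genes), the ATF4 arm (14 genes), the first minus the second, and a hypoxia and glycolysis list (14 genes), with a point per array numbered by replicate and a line at the group mean. SEMA6A replicate 2 is at 0.18 in the ATF4 arm and at -0.22 in the chaperone arm, and SEMA6A replicate 2 and SEMA3A replicate 1 are at the top of the hypoxia panel.

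Further genes of each pathway were counted from lists whose members are outside the 36. Of 34 further ATF4 and amino acid genes, 30 were tested. In SEMA6A against control 25 of the 30 were above 0, beside 53.4% of all genes, with 8 above and 1 below at an unadjusted p under 0.05, where 6.5% and 3.93% of all genes were. In SEMA3A against control 27 were above 0, beside 51.7%, with 5 and 1 at that p, beside 4.87% and 3.86%. For both factors against control 11 were above 0, beside 53.4%, with 0 and 2, beside 2.58% and 1.54%. Both factors against SEMA3A alone gave 4 above 0, beside 51.3%, with 0 and 5, beside 5.84% and 5.4%. Against SEMA6A alone 3 were above 0, beside 49.8%, with 0 and 12, beside 5.21% and 6.3%. In the interaction 4 were above 0, beside 49.5%, with 0 above and 14 below at that p, beside 7.82% and 10.2%, and the median was -0.45. In parentheses below is the number of all 11325 genes on the same side at that p. The 14 below in the interaction (1151) became 11 without SEMA6A replicate 2 (935), with a median of -0.25, and 9 without control replicate 2 (831). The 8 above in SEMA6A against control (736) became 3 without control replicate 1 (510) or SEMA6A replicate 2 (323). Without control replicate 2 they became 2 (519). The 12 below in both factors against SEMA6A alone (714) became 2 without SEMA6A replicate 2 (337). They became 7 without replicate 1 of both factors (429) and 5 without replicate 2 of both (516). The 5 above in SEMA3A against control (552) became 1 without SEMA3A replicate 1 (241) or control replicate 1 (419). They became 8 without SEMA6A replicate 2 (874) and 2 without control replicate 2 (355). The 5 below in both factors against SEMA3A alone (612) became 12 without SEMA6A replicate 2 (1001). They became 11 without SEMA3A replicate 3 (948), 2 without SEMA3A replicate 1 (231) and 3 without SEMA3A replicate 2 (341) or replicate 2 of both (490). SEMA6A replicate 2 is in neither group of these last 2 comparisons. Leaving it out kept their differences and changed only the shared estimate of spread. In the main fit none of the 30 passed the adjusted threshold. In the interaction 10 did so without SEMA6A replicate 1 and 3 without SEMA3A replicate 3, where 1259 and 262 of 11325 genes did. With array weights 9 did so there, beside 1580 of all genes. In SEMA6A against control and in both factors against SEMA6A alone 1 each did so without SEMA6A replicate 1. Of all genes 503 and 346 did so there. In both factors against SEMA3A alone 1 did so with array weights, beside 305 of all genes. Mars1, the methionyl-tRNA synthetase gene, had a signal of 4232, 4456 and 4994 on the control arrays, 4670.2, 5690.2 and 5444 with SEMA6A, 5916, 5518 and 5084 with SEMA3A and 4407, 4059 and 4092 with both. The interaction of Mars1 was -0.61 ± 0.14 (adjusted p = 0.197), or -0.55 without SEMA6A replicate 2 (adjusted p = 0.266). Aars, the alanyl-tRNA synthetase gene, had a signal of 2798, 3107 and 3603 on the control arrays, 4042, 5913 and 3746 with SEMA6A, 4572, 4252 and 4269 with SEMA3A and 3619, 2921 and 3691 with both. All SEMA6A and all SEMA3A arrays of Aars lay above the control arrays, and its interaction was -0.88 ± 0.22 (adjusted p = 0.197), or -0.67 without SEMA6A replicate 2 (adjusted p = 0.266).

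Of 30 further unfolded protein response genes, 28 were tested, and none passed the adjusted threshold. At an unadjusted p under 0.05, 1 lay above and 1 below in SEMA6A against control, 2 and 1 in SEMA3A against control, and 0 and 0 for both factors against control, beside the same shares of all genes as above. Both factors against SEMA3A alone gave 0 and 4, where 5.84% and 5.4% of all genes were above and below, and against SEMA6A alone 2 and 3, beside 5.21% and 6.3%. The interaction gave 1 and 6, beside 7.82% and 10.2%, with a median of -0.14. In parentheses again is the number of all 11325 genes on the same side. The 6 (1151) became 3 without any single one of control replicate 1, SEMA6A replicate 3 and SEMA3A replicates 1 and 2 (753 to 988). The 4 below SEMA3A alone (612) became 1 without SEMA3A replicate 1 (231) and 0 without SEMA3A replicate 2 (341). They became 2 without replicate 2 of both factors (490). Leaving out SEMA6A replicate 1 gave 7 above (1649) and 4 below (1369) in SEMA6A against control. Leaving out SEMA3A replicate 3 gave 6 above (880) in SEMA3A against control. The 2 and 3 in both factors against SEMA6A alone (590 and 714) became 4 and 5 without SEMA6A replicate 1 (1386 and 1575). They became 1 and 1 without SEMA6A replicate 2 (371 and 337), and 2 and 0 without replicate 2 of both factors (382 and 516). The 3 below became 1 without SEMA6A replicate 3 (525), and the 2 above became 0 without replicate 3 of both factors (416). Ero1a, the oxidase that recharges disulfide isomerases, had the smallest p. Its signal was 4293, 5018 and 5283 on the control arrays, 5094, 10179 and 7853 with SEMA6A, 10358, 7904 and 5302 with SEMA3A and 4811, 4631 and 5283 with both, and the interaction was -1.25 ± 0.34 (adjusted p = 0.197), or -1.01 without SEMA6A replicate 2 (adjusted p = 0.267). Ero1a is also known as a gene of the hypoxic response, and its high arrays were those on which the hypoxia list was high. Stt3a, a catalytic subunit of N-glycosylation, came next, with -0.37 ± 0.12 in SEMA3A against control (adjusted p = 0.551).

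**Figure D5:**
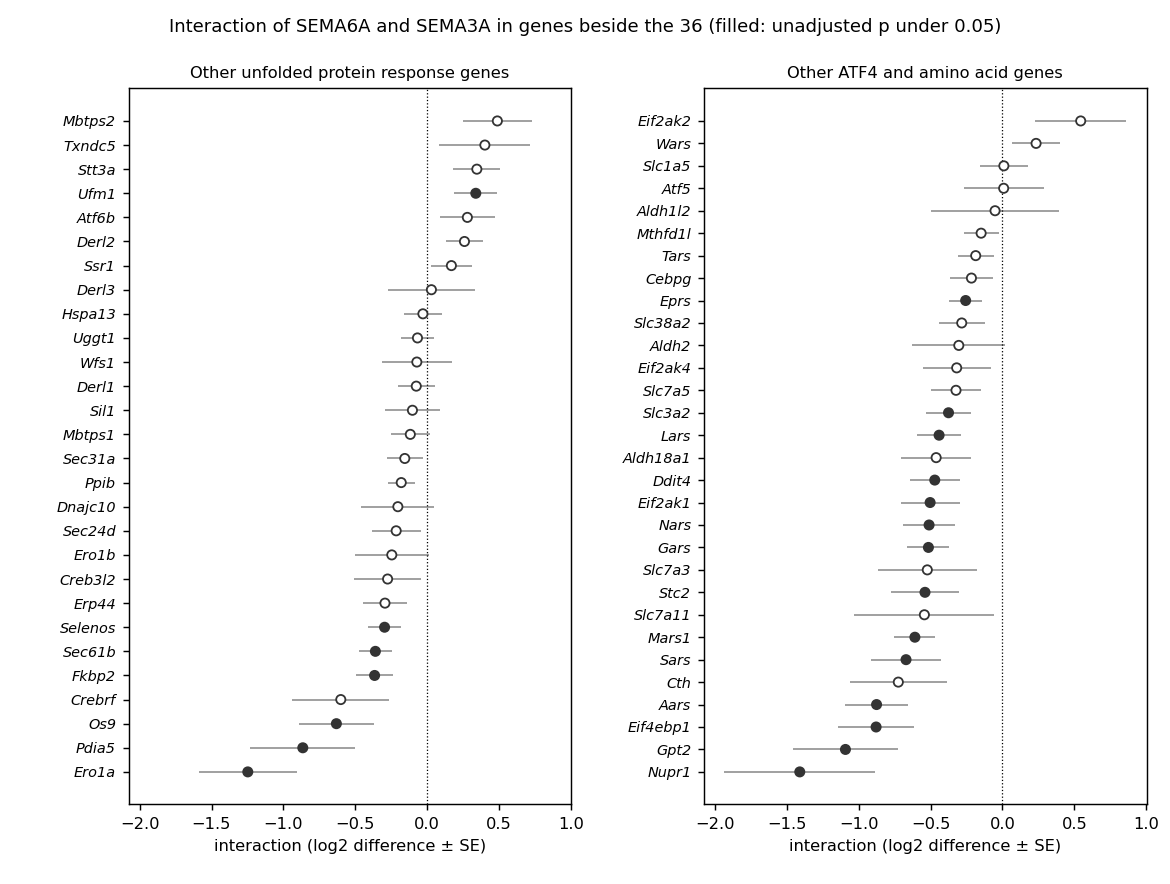
Interaction (log2 difference ± standard error) of 28 further unfolded protein response genes and 30 further ATF4 and amino acid genes, sorted within each panel, with filled points at an unadjusted p under 0.05. In the ATF4 panel 26 of 30 genes lie below 0 and 14 are filled, and in the other panel 20 of 28 lie below 0 and 7 are filled.

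The counts among the 36 genes moved when 1 array was left out. So did those over all 11325 genes at the same p, which follow in parentheses. Leaving out an array of neither group compared kept a 2-group difference as it was and changed only the shared estimate of spread. In the interaction the 8 genes at an unadjusted p under 0.05 (2037) became 13 without SEMA6A replicate 1 (3392). They became 4 without SEMA3A replicate 1 (1299), and 5 without control replicate 2 (1470) or replicate 1 of both factors (1538). Without SEMA6A replicate 2 they became 9 (1735), all below 0, with Pdia3 and Xbp1 among them. The ATF4 median was then -0.25 and the chaperone median -0.036. Both factors against SEMA6A alone then gave -0.24 for Asns, -0.18 for Herpud1, -0.29 for Mthfd2, -0.15 for Shmt2 and 0.22 for Sesn2. In SEMA6A against control the 2 genes (1181) became 0 without SEMA6A replicate 2 (558) and 4 without SEMA3A replicate 3 (1287). Without SEMA6A replicate 1 they became 12 (3018), with 7 above and 5 below 0, where 1649 and 1369 of all genes were. They became 1 without control replicate 1 or 3, SEMA3A replicate 2 or any 1 array of both factors (707 to 1078). In SEMA3A against control the 1 gene (989) became 8 without SEMA3A replicate 3 (1743). It became 4 without SEMA6A replicate 2 (1572) and 2 without SEMA6A replicate 1 (1325). For both factors against control the 1 gene (466) became 5 without SEMA6A replicate 2 (772) and 3 without control replicate 2 (596). It became 0 without control replicate 3 (294) or replicate 3 of both factors (432). It became 2 when either SEMA3A replicate 2 or 3, SEMA6A replicate 1 or control replicate 1 was left out (310 to 538). In both factors against SEMA3A alone the 6 (1273) became 3 without SEMA3A replicate 1 (595) or 2 (754). Without SEMA3A replicate 3 they became 10 (2037). In both factors against SEMA6A alone the 5 (1304) became 0 without replicate 1 (747) and 1 without replicate 2 (898) of both factors. They became 3 without control replicate 1 (1120) or SEMA3A replicate 2 (1185), and 10 without SEMA6A replicate 1 (2961). No member passed the adjusted threshold in a 2-group comparison when any 1 array was left out. In the interaction 3 did so without SEMA6A replicate 1 (Asns, Atf4 and Sesn2), where 1259 of 11325 genes did. Without SEMA3A replicate 3 there were 2, where 262 genes of all did. Every fit without SEMA6A replicate 1 rested, for that group, on replicates 2 and 3, and replicate 2 had the raised Gapdh and Actb ratios. With arrays weighted by their spread, 3 members passed in both factors against SEMA3A alone (Atf4, Herpud1 and Xbp1), where 305 genes of all did. In the interaction 8 then passed, where 1580 genes of all did. The weights were estimated from these same data. They were 0.475, 0.217 and 2.00 on SEMA6A replicates 1 to 3, and 0.584 to 1.86 on the other arrays, so replicate 3 dominated the weighted SEMA6A group.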

How the data were processed

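Splenocyte RNA was measured on 12 single-colour arrays, 3 in each of 4 groups, with biotin-labelled cRNA. The authors deposited linear intensities, 1 for each probe set, made by the MAS5 algorithm per the submitters' processing notes, of a version not given in the sources used here. After trimming 2% at each end, every array's deposited intensities averaged 500. Of 45101 probe sets, 64 were controls and 34945 named 1 gene in the platform annotation.

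Signals were taken as log2(signal + 16), which understates differences of dim genes, and quantile normalized, since array medians differed by a factor of 1.26. Probe sets above their own array's median on at least 3 arrays were kept (24366), and the brightest per gene was used. Limma 3.58.1 (R 4.3.3) fitted 11325 genes over all 12 arrays, with a mean for each group and a prior that follows signal (8 residual and 5.12 prior degrees of freedom), and the Benjamini-Hochberg adjustment was read at 0.05. Precision is limited by the number of arrays: the median standard error was 0.153. In 20 draws of simulated data for SEMA6A against control, with 11325 genes and 200 changed, the fit recovered 41.9% of genes shifted 1.5-fold, 75.4% at 2-fold and 96.1% at 4-fold, and 4.42% of calls were false. The draws gave each gene independent normal noise of the same spread in all 4 groups. No simulated array stood apart as SEMA6A replicate 2 did, so these shares do not describe the power in the measured SEMA6A group. Promoter letters were searched with Python 3.11.15.

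The members, lists and tests were chosen with earlier results of these data known. All 36 members are named, 20 of them with the signal of every array (18 of a fixed panel and the 2 others with an unadjusted p under 0.05), and from each further list the 2 genes with the smallest p. Other array values were chosen after they were seen. Protein sequences were not analysed here. Identical arrays were looked for: at most 2.2e-05 of the values of any of 66 pairs were equal. Tried as alternatives were the deposited values without quantile normalization, a pseudocount of 1 or 64, a filter at the 75th percentile or none, the probe set of the largest interquartile range, only the arrays compared, a replicate block, array weights, no prior trend and leaving out each array.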

Additional observations from a re-analysis of the deposited data

How the results depend on the processing

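The absence of members past the adjusted threshold held under all settings for SEMA6A, SEMA3A and both factors against control, and for both factors against SEMA6A alone. With array weights 3 members passed in both factors against SEMA3A alone (Atf4, Herpud1 and Xbp1) and 8 in the interaction. Leaving out 1 array gave 0 to 3 members there. Of 23 member differences at an unadjusted p under 0.05, 22 kept their direction under every setting. Several settings could not turn a difference: a replicate block, no prior trend or leaving out an array of a group not compared kept it as it was. Some dimmer probe sets with the opposite sign, such as those of Pdia6, Psat1 and Xbp1 given above, were not among the settings. Atf4 in both factors against SEMA3A alone turned to 0.17 with the probe set of the largest interquartile range, which is another probe set. With that choice the ATF4 median of the interaction was -0.21.

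Over all genes, 0 were called in each comparison. Array weights called 12 for both factors against control, 305 against SEMA3A alone, 6 against SEMA6A alone and 1580 in the interaction. The largest interquartile range called 1 and only the arrays compared called 4 for both factors against control, and no prior trend called 1 against SEMA6A alone. Leaving out 1 array called 0 to 503 in SEMA6A against control, 0 to 2 for both factors against control, 0 to 346 against SEMA6A alone and 0 to 1259 in the interaction, each highest without SEMA6A replicate 1. The cause was not tested.

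Members at an unadjusted p under 0.05 numbered 2, 1, 1, 6, 5 and 8 in the order SEMA6A, SEMA3A and both factors against control, both factors against SEMA3A alone and SEMA6A alone, and interaction. Over all 11325 genes the numbers were 1181, 989, 466, 1273, 1304 and 2037. Array weights gave 5, 8, 7, 11, 10 and 13 members, and 2271, 2174, 1331, 2816, 2542 and 3523 of all genes. The largest interquartile range gave 1, 0 and 3 members in the first 3 comparisons, and 3 and 5 in the last 2. All genes there numbered 1117, 1014, 718, 1288 and 1882. Only the arrays compared gave 3 in the second comparison, 7 in the third, 10 in the fourth and 3 in the fifth. All genes there numbered 1497, 1037, 1911 and 809. No prior trend gave 1 in the first, 0 in the third and 2 in the fifth, and no further normalization gave 0 in the third. All genes numbered 1033, 517 and 1127 without the trend and 499 without further normalization. Leaving out 1 array gave 0 to 12, 1 to 8, 0 to 5, 3 to 10, 0 to 10 and 4 to 13 members. Over all genes it gave 558 to 3018, 414 to 1743, 294 to 772, 595 to 2037, 708 to 2961 and 1299 to 3392. The ATF4 median in both factors against SEMA3A alone ranged from -0.29 to -0.096 without 1 array.

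To look for pairing, each gene's group mean was subtracted on the log2 scale, and what remained was correlated between arrays of different groups. What remains cancels out within a group, so these correlations are tied to one another and are not those of whole arrays. Same-numbered arrays gave correlations of -0.36 to 0.14 over 18 pairs, with a median of -0.076. Pairs of different number gave -0.23 to 0.42 over 36 pairs, with a median of 0.015. With 3 arrays in a group such correlations cannot settle whether the numbers pair the samples. With a replicate block the counts of members at an unadjusted p under 0.05 were 1 in SEMA6A against control, 0 in both factors against control and 3 in both factors against SEMA6A alone. All genes there numbered 1006, 373 and 1094, and no gene was called.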
